A study of Mus musculus with 9 samples.

Results

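Pancreatic islets from mice fed a ketogenic diet were compared with islets from mice fed a high fat diet, so that both arms ate mostly fat. The members are libraries, taken by the diet in each sample's title: 4 ketogenic (KD) libraries and 2 high fat (HFD) libraries, 6 of the 9 libraries of the series. The mice were male C57BL/6J, labelled WT, 15 weeks old when the diets began and kept on them for 9 months. The KD held 89.9% fat and the HFD 60% fat. The 3 remaining libraries came from mice on a low fat diet (LFD, 10% fat), which shared the other traits, and entered the fit of the spread. Polyadenylated RNA was sequenced from strand-specific libraries, and a level is given below in CPM, counts scaled to a common library size after TMM normalization. CPM values of a gene are listed in replicate order, 1 and 2 on HFD and 1 to 4 on KD. No source states whether each library came from 1 mouse or from a pool, so a p-value here measures only the spread between these libraries. Dates and batches of isolation or sequencing were not given in the labels, and a batch effect and a diet effect cannot be told apart.

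Islets are clusters of endocrine cells, mainly insulin-secreting beta cells and glucagon-secreting alpha cells, set in the digestive-enzyme-producing acinar tissue of the pancreas. On a diet with almost no carbohydrate, tissues turn to fatty acids and ketone bodies, a shift controlled in part by the nuclear receptor PPAR alpha, which switches on genes of fatty acid uptake, oxidation and ketone synthesis. Endocrine and acinar cells both make large amounts of secreted protein, and both rely on the chaperones, degradation machinery and transport vesicles of the endoplasmic reticulum (ER).

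Islet hormone genes were abundant in all 6 libraries, and so were acinar transcripts. The 35 genes of an acinar list took 19.2% and 11.5% of counts in HFD replicates 1 and 2, and 62.3%, 45.8%, 58.0% and 20.9% in KD replicates 1 to 4. Every KD share was above both HFD shares, but KD replicate 4 lay just above HFD replicate 1 and far below the other KD libraries. The means were 46.7% ± 18.6 (SD, n = 4) on KD and 15.4% ± 5.47 (SD, n = 2) on HFD, a difference of 31.3 percentage points (two-sided exact permutation test, p = 0.133, where the 15 splits allow no p below 0.0667). Ins1 and Ins2 together took 10.6% and 9.54% of counts on HFD, and 1.44%, 4.37%, 2.47% and 11.1% on KD. The insulin shares overlapped, because KD replicate 4 was above both HFD libraries, and the difference of -5.20 percentage points had an exact permutation p of 0.333. A share also falls when other transcripts take more of the counts. Per TMM-scaled library size the insulin difference was -2.15 percentage points. In bulk RNA, fewer cells of a type and less RNA per cell cannot be told apart.

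**Figure D1:**
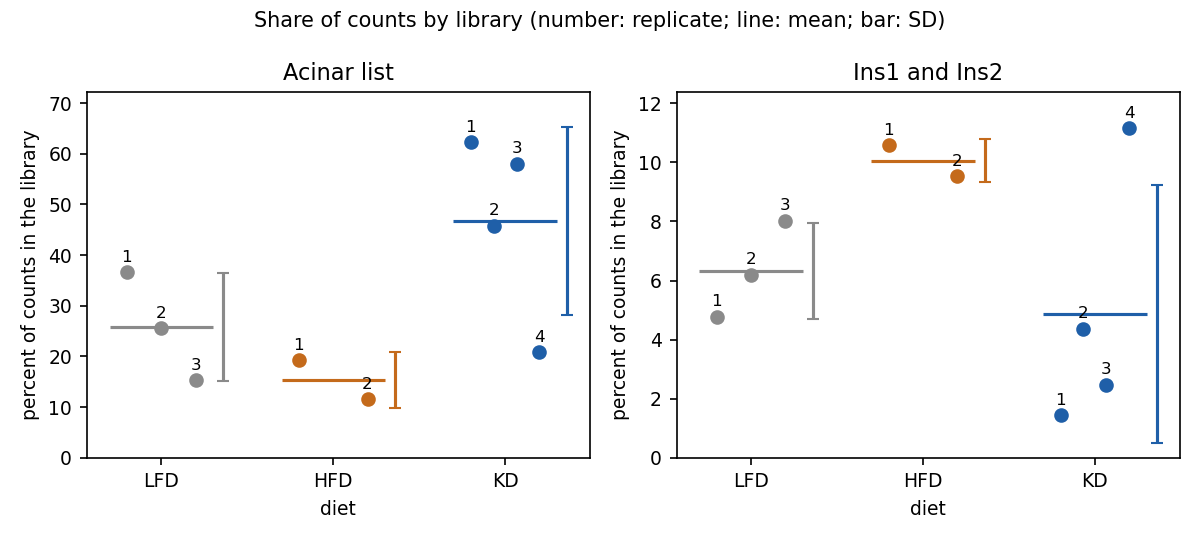
Percent of each library's counts (vertical axes) taken by the acinar list (left) and by Ins1 and Ins2 (right), by diet; points are libraries numbered by replicate, lines are means and bars are SD. KD replicates 1 to 3 lie between 45.8% and 62.3% acinar, while KD replicate 4, at 20.9%, lies next to HFD replicate 1, at 19.2%.

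Over all genes the KD libraries formed a range, with KD replicate 4 nearest to the HFD libraries. On the leading principal component, which held 33.0% of the variance, the HFD libraries lay at -24.6 and -24.5, KD replicate 4 at 12.2, and KD replicates 2, 1 and 3 at 33.8, 66.9 and 69.9. Across genes, which are not replicates, the correlation of log2 CPM was 0.966 and 0.969 between KD replicate 4 and the HFD libraries, against 0.949, 0.975 and 0.959 with KD replicates 1 to 3. KD replicate 4 was thus about as close to KD replicate 2 as any pair of KD libraries. Total counts of the 6 libraries ran from 15898599 to 26588390, and the TMM factors from 0.542 in KD replicate 1 to 1.5 in HFD replicate 2. The factor lifts the CPM of a library that a few acinar genes dominate, so CPM values of acinar genes exceed their shares there. Results that rest on KD replicate 4 are therefore given with and without it. A fit with an acinar score as a covariate, the centred mean log2 CPM of the acinar list in each library, is given beside the gene groups. Members of the acinar list are part of that score, so a value near 0 for them with the covariate is in part fixed by construction. The score and diet are themselves related, and the part of acinar RNA in any result was not tested beyond these values.

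With all 9 libraries in edgeR's quasi-likelihood fit, no gene of 18548 passed an adjusted p of 0.05, which is 0% called, and the smallest adjusted p was 0.124. At an unadjusted p of 0.05, 4215 genes (22.7%) passed, 2246 of them (12.1%) higher on KD and 1969 (10.6%) lower. DESeq2 called 1518 of 18533 genes (8.19%), and limma-voom with sample quality weights called 0. Without KD replicate 4, edgeR called 1793 of 18225 genes (9.84%), 1165 higher on KD (6.39%) and 628 lower (3.45%), of which 639 and 296 differed by at least 2-fold. Of those 1793 genes, DESeq2 on all libraries also called 1179, which is 65.8% of the edgeR list and 77.7% of the DESeq2 list. No other single library, left out in turn, gave a call. KD replicate 4 was the KD library nearest to the HFD libraries, so leaving it out favours calls. Without it but with the acinar covariate, edgeR called 0 genes. Adjusted p values and passes without KD replicate 4 are therefore given below as a description.

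The library that was left out, KD replicate 4, was set beside the HFD libraries for the genes called without it. This is a description with no test, since the calls were made against the same HFD libraries. Among the 1165 genes called higher without it, KD replicate 4 was above both HFD libraries for 863, between them for 229 and below both for 73. Among the 628 genes called lower, it was below both for 507, between them for 99 and above both for 22. Over all genes tested, the 4 KD and 2 HFD libraries did not overlap for 6290 genes (33.9%), 2917 of them higher on KD (15.7%) and 3373 lower (18.2%). Fold changes were above 0 for 46.6% of genes and below 0 for 53.2%, with a median log2 fold change of -0.04. These percentages are the background against which the counts of list members below can be read. For passes without KD replicate 4, the background is the 6.39% of genes higher and 3.45% lower given above. Fold changes are log2 of KD over HFD from the fit of all 9 libraries unless said otherwise, and in that fit none of the genes below passed the test.

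Genes of fuel metabolism were among those with all 4 KD libraries apart from both HFD libraries. Pdk4 encodes pyruvate dehydrogenase kinase 4, which holds pyruvate back from oxidation when fat is burned. Its level was 24.6 and 24.3 CPM on HFD and 66.7, 58.9, 41.9 and 47.7 CPM on KD. All KD libraries were above both HFD libraries, KD replicate 4 included, and the HFD libraries nearly coincided. The log2 fold change was 1.14 ± 0.22 (SE), with an adjusted p of 0.124 in all libraries, and 1.19 ± 0.23 (SE) without KD replicate 4, where Pdk4 passed (edgeR, adjusted p = 0.0198). It was 0.96 with the acinar covariate. Creb3l3, an ER-bound transcription factor of the fasting response best known in liver, stood at 1.40 and 1.93 CPM on HFD and 17, 9.62, 13.8 and 5.69 CPM on KD. KD replicate 4 was the lowest KD library and was still above both HFD libraries. The KD libraries stood in the order of their acinar shares for Creb3l3, and the part of acinar RNA in this was not tested. The difference was 2.77 ± 0.44 (SE) in log2, and 3.00 ± 0.34 (SE) without KD replicate 4 (adjusted p = 0.0162). The LFD mean was 0.495 CPM.

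Adcy1 encodes adenylyl cyclase 1, a calcium-stimulated enzyme that makes cyclic AMP. It measured 5.55 and 3.48 CPM on HFD and 18, 23.7, 11.7 and 27.8 CPM on KD. KD replicate 4, the library with the lowest acinar share on KD, was the highest of all, and KD replicate 3 the lowest of the KD libraries. Its log2 fold change was 2.18 ± 0.40 (SE) with all libraries, 1.99 ± 0.39 (SE) without KD replicate 4 (adjusted p = 0.0207) and 2.61 with the acinar covariate. Cpt1a, the rate-limiting carnitine transferase that admits long-chain fatty acids to mitochondria, gave 58.4 and 61.7 CPM on HFD and 107, 97.7, 90.8 and 70.5 CPM on KD. All 4 KD libraries were above both HFD libraries, with KD replicate 4 closest to them. The difference was 0.61 ± 0.17 (SE) on the log2 scale, and 0.71 ± 0.14 (SE) without KD replicate 4 (adjusted p = 0.0194).

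Fbp2, the muscle form of fructose-1,6-bisphosphatase, had 1.45 and 0.587 CPM on HFD and 12.3, 5.52, 5.25 and 1.52 CPM on KD. KD replicate 4 was barely above HFD replicate 1 and the other KD libraries were clearly above it. The log2 fold change was 2.59 ± 0.74 (SE), and 0.52 with the acinar covariate. Ehhadh, the peroxisomal bifunctional enzyme of fatty acid oxidation, showed 13.1 and 11.8 CPM on HFD and 32.2, 21.9, 30.8 and 16 CPM on KD and did not overlap (log2 fold change 1.02, SE 0.28). For Ehhadh, too, the KD libraries stood in the order of their acinar shares.

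Hadh and Txnip, by contrast, overlapped between the diets. Hadh, the mitochondrial short-chain dehydrogenase that is abundant in beta cells, was at 267 and 293 CPM on HFD and 213, 277, 218 and 325 CPM on KD, with a log2 fold change of -0.12 ± 0.22 (SE). Txnip, the glucose-responsive thioredoxin-interacting protein, was at 467 and 344 CPM on HFD and 452, 402, 312 and 316 CPM on KD, also overlapping (log2 fold change -0.13, SE 0.21), although the LFD mean was 676 CPM, above all 6. Ucp2, a mitochondrial carrier, differed by 0.12 ± 0.19 (SE). Slc16a6, a monocarboxylate transporter known for ketone body export from liver, was the largest difference of its list at 1.86 ± 0.59 (SE) and was chosen after its values were seen. It read 10.6 and 9.47 CPM on HFD and 43.2, 28.4, 57.8 and 17.7 CPM on KD, without overlap. With the acinar covariate and without KD replicate 4, the log2 fold change of Slc16a6 was -0.20, a change of sign.

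**Figure D2:**
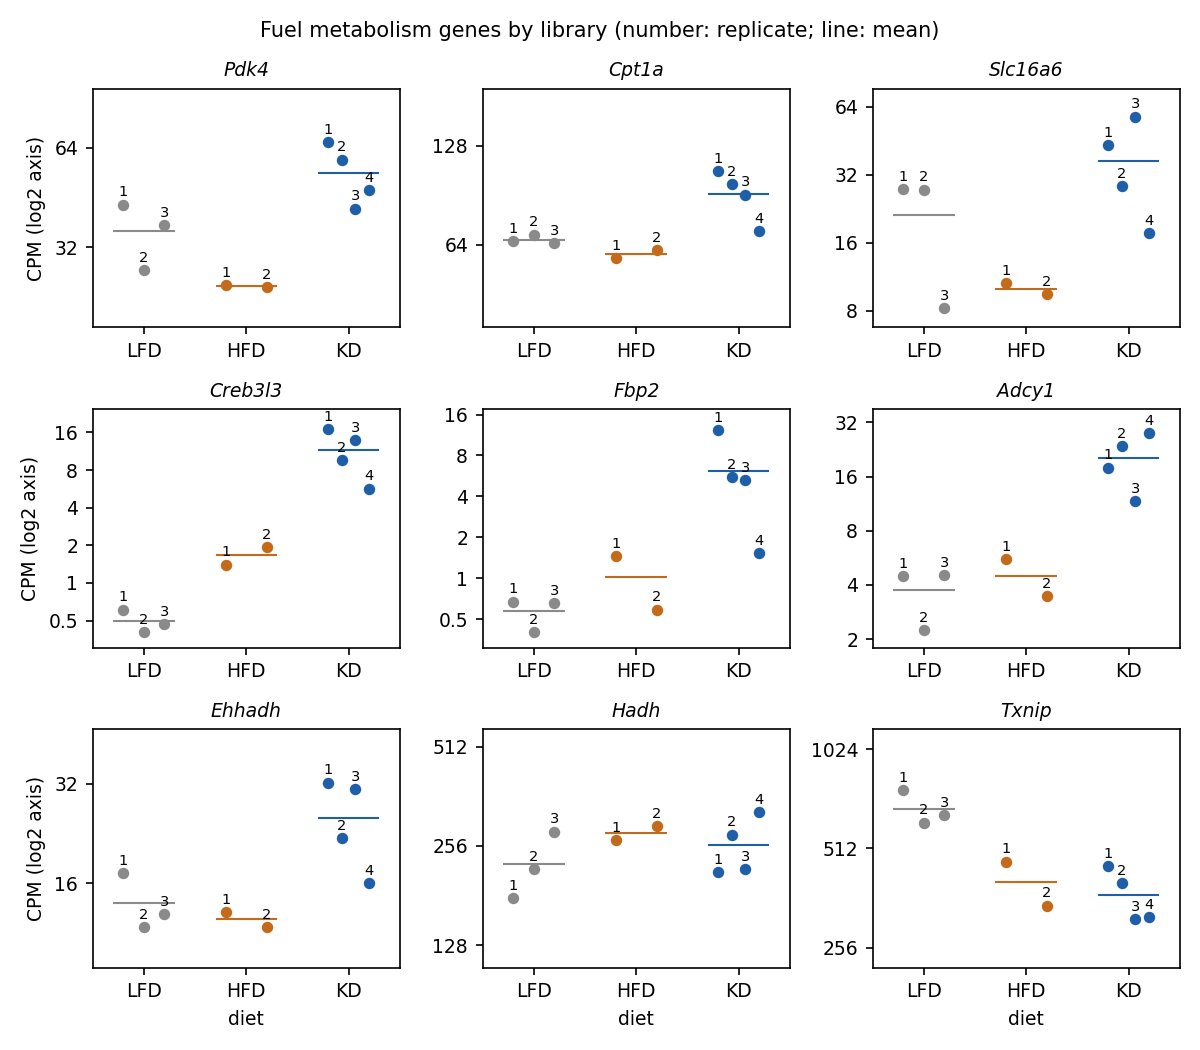
CPM (vertical axes, log2 scale) of 9 fuel metabolism genes by diet; points are libraries numbered by replicate and lines are means. Pdk4, Creb3l3, Adcy1 and Cpt1a lie higher in all 4 KD libraries than in both HFD libraries, whereas KD replicate 4 of Fbp2, at 1.52 CPM, lies next to HFD replicate 1, at 1.45 CPM.

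As a group, the 27 tested genes of fatty acid oxidation and ketone metabolism had 21 members higher on KD and 6 lower, with a median log2 fold change of 0.27 against -0.04 for all genes. The libraries did not overlap for 12 of them, 11 higher and 1 lower, against 15.7% and 18.2% of all genes. Without KD replicate 4, 7 passed the test higher and 0 lower, against 6.39% and 3.45% of all genes. The list median was 0.14 with the acinar covariate, and above 0 in each of the 4 KD libraries, from 0.12 in KD replicate 4 to 0.45 in KD replicate 1. The PPAR-responsive list had 11 of 18 tested genes higher and 7 lower and a median of 0.20. Against 6.39% of all genes, 6 members passed higher without KD replicate 4. They include Creb3l3, Pdk4, Ehhadh, Cpt1a and Pnpla2, the lipase that starts triglyceride breakdown (log2 fold change 0.56). Plin2, the lipid droplet coat protein and also a PPAR target, was at 21.3 and 28 CPM on HFD and 16.8, 19.6, 13.1 and 19.2 CPM on KD, lower in all 4 KD libraries (log2 fold change -0.52, SE 0.23, and 0.03 with the acinar covariate). Pnpla2 and Plin2 were chosen after their values were seen.

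The genes with the largest differences were chosen by size, p and the absence of overlap in these same libraries, so that their separation is a description and supports nothing further. Of the 10 largest increases, Reg1, Pla2g1b and Sycn are members of the acinar list, and the other 7 are not. The list does not hold every related gene: it has the elastase Cela3b but not Cela3a, and Reg1 but not Reg3d. Reg1, a secreted lectin-like protein of acinar cells, had 922 and 538 CPM on HFD and 17205, 7344, 17004 and 2095 CPM on KD. The 4 KD libraries were above both HFD libraries, with KD replicate 4 closest to them. In log2 terms the difference was 3.90 ± 1.14 (SE). Reg3d, of the same family, read 12.5 and 10.3 CPM on HFD and 309.8, 112, 322 and 47.9 CPM on KD, a log2 fold change of 4.12 ± 1.07 (SE). Members of the Reg family are near-identical in stretches, and how shared reads were assigned is not known.

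Reg3g, an antimicrobial member of the family, did not order the KD libraries by their acinar share. Its levels were 1.0 and 0.545 CPM on HFD and 8.09, 4.99, 13.1 and 16.1 CPM on KD. KD replicate 4 was the highest and all KD libraries were far above both HFD libraries. The log2 fold change was 3.78 ± 0.84 (SE), 3.66 with the acinar covariate, and -0.39 with the covariate and without KD replicate 4, so its sign there rests on that library. Gal encodes galanin, a neuropeptide that restrains insulin secretion. It stood at 2.90 and 1.68 CPM on HFD and 44.9, 24.5, 34.5 and 6.23 CPM on KD, with no overlap and the lowest KD value in replicate 4. Unlike Reg3g, Gal ordered the KD libraries by their acinar share, and the part of acinar RNA in this was not tested. The difference was 3.59 ± 0.75 (SE) in log2, and 3.92 ± 0.35 (SE) without KD replicate 4, where it had the lowest adjusted p of the named genes (edgeR, 0.00407).

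The remaining increases likewise had a wide range over the KD libraries. Cela3a, an elastase, gave 11.3 and 3.73 CPM on HFD and 116, 62.4, 97 and 18.1 CPM on KD. Pla2g1b, the pancreatic phospholipase, gave 57.6 and 41 CPM on HFD and 695, 412, 709 and 98.1 CPM on KD. In both, KD replicate 4 was the lowest KD library and was still above both HFD libraries. Sycn, syncollin of the zymogen granule, Lcat, the cholesterol-esterifying enzyme, Hamp2, a hepcidin gene, and Tmed11, a p24-family cargo protein, had log2 fold changes of 3.01, 3.10, 3.07 and 2.99. With the acinar covariate Lcat, Hamp2 and Tmed11 were at 0.36, 0.37 and 0.41.

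The 10 largest decreases, chosen in the same way, ran from -2.15 for Il1b to -1.71 for Hba-a1, and 9 of them are described. Il1b, the inflammatory cytokine interleukin 1 beta, measured 4.40 and 7.96 CPM on HFD and 1.40, 1.25, 0.712 and 2.06 CPM on KD. All KD libraries were below both HFD libraries, and the log2 fold change was -2.15 ± 0.47 (SE). Mt2, a metallothionein induced by zinc and glucocorticoids, measured 12.2 and 33 CPM on HFD and 5.37, 6.46, 4.72 and 5.24 CPM on KD, with the KD libraries close together and the HFD libraries apart (log2 fold change -2.05, SE 0.38). Its fold change was -1.15 with the acinar covariate, and 0.27 with the covariate and without KD replicate 4. The globin genes Hba-a1, Hbb-bs and Hbb-bt, which mark red blood cells and are near-identical in pairs, differed by -1.71, -1.92 and -2.10. Hba-a1 read 30.0 and 16.5 CPM on HFD and 6.15, 9.13, 4.81 and 8.07 CPM on KD. HFD replicate 1 was the highest library for all 3 globin genes, and no KD library reached the lower HFD value.

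Of the other decreases, Selp, the adhesion molecule P-selectin, had 7.50 and 8.93 CPM on HFD and 3.27, 3.16, 1.78 and 1.25 CPM on KD. Cysltr1, a leukotriene receptor, Me3, the mitochondrial malic enzyme, and Slc35f4, a solute carrier, had log2 fold changes of -1.75, -1.72 and -1.94. Slc35f4 was at 7.05 and 7.21 CPM on HFD and 0.700, 1.34, 1.69 and 3.54 CPM on KD, against an LFD mean of 0.763 CPM, so that KD and LFD were both low.

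Among the genes with the lowest p without KD replicate 4, Slc7a8 and Mbnl3 were higher on KD beside Gal and Creb3l3. Slc7a8, a transporter of neutral amino acids, stood at 82.2 and 80.7 CPM on HFD and 222, 181, 247 and 122 CPM on KD. KD replicate 4 was the lowest KD library and above both HFD libraries (log2 fold change 1.24, SE 0.24). Mbnl3, a splicing regulator, differed by 2.47 ± 0.56 (SE). Bambi, a decoy receptor of TGF beta signalling, was lower without KD replicate 4, at -1.52 ± 0.21 (SE), but KD replicate 4 was level with HFD replicate 2 and the diets overlapped. Ifi203, an interferon-inducible gene, was at 17.2 and 13.7 CPM on HFD and 6.61, 5.70, 5.17 and 7.21 CPM on KD, and its fold change was nearly the same in the fits with KD replicate 4 (log2 fold change -1.31, SE 0.19), without it (log2 fold change -1.40, SE 0.20) and with the acinar covariate (-1.28). Atp6v0e, a subunit of the proton pump, and Samd9l, another interferon-inducible gene, did not overlap either, with log2 fold changes of -0.81 and -0.95.

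Pdyn, which encodes the opioid peptide precursor prodynorphin, gave opposite readings by library. It stood at 105 and 59.6 CPM on HFD and 9.49, 19.7, 20.8 and 139 CPM on KD. KD replicates 1 to 3 were below both HFD libraries and KD replicate 4 was above both. The log2 fold change was -0.80 ± 0.93 (SE) with all libraries, -2.30 ± 0.33 (SE) without KD replicate 4 (adjusted p = 0.0162) and 0.44 with the acinar covariate.

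The acinar list was higher on KD as a whole, but not evenly. All 35 members had a log2 fold change above 0, with a median of 2.55, and 24 did not overlap, against 15.7% of all genes. The median was 2.88 without KD replicate 4, and 29 members passed. Ctrb1, chymotrypsinogen, was at 25047 and 11682 CPM on HFD and 220405, 91413, 164861 and 32682 CPM on KD. Pnlip, pancreatic lipase, was at 18054 and 7542 CPM on HFD and 141387, 64324, 111410.0 and 18401 CPM on KD. The KD libraries were above both HFD libraries for each, although Pnlip in KD replicate 4 was only just above HFD replicate 1. Pnliprp2, a lipase-related protein, differed by 2.98 ± 0.78 (SE).

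Amylase departed from this. Amy1, the salivary-type amylase, was at 14.4 and 8.38 CPM on HFD and 24.1, 17.1, 26.4 and 6.45 CPM on KD. Amy2a5, the pancreatic amylase, was at 7.10 and 3.44 CPM on HFD and 5.37, 5.30, 12.1 and 2.11 CPM on KD. Both overlapped, with log2 fold changes of 0.69 ± 0.54 (SE) and 0.21 ± 0.69 (SE), the smallest of the list. These 2 genes and the ratio below were chosen after their values were seen. The amylase genes are near-identical copies, so their counts are uncertain one by one, and the 7 of them were summed. How reads shared between the copies were counted is not known, and the sum cannot restore any that were left out. The summed counts were few, 1307 and 974 on HFD and 742 to 1730 on KD. The ratio below may therefore describe only a part of the amylase RNA. Per 100000 counts of the acinar and amylase genes together, amylase had 41.6 and 53.2 counts in HFD replicates 1 and 2, and 8.94, 13.8, 16.4 and 18.6 in KD replicates 1 to 4. The 3 LFD libraries had 113, 159 and 94.9, so the diets did not overlap, with LFD highest, then HFD and then KD.

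The mean amylase ratio was 14.4 ± 4.16 (SD, n = 4) on KD and 47.4 ± 8.17 (SD, n = 2) on HFD, and the difference of the mean log2 ratios was -1.76, or 3.38-fold lower on KD. No test is given, because the ratio was formed after the values were seen. KD replicate 4, with an acinar share near that of HFD, had the highest KD ratio and was still below both HFD libraries. Measured in log2 against the mean of the other list members in the same library, KD minus HFD was -2.16 for Amy2a5, -1.65 for Amy1 and 1.41 for Reg1. Other than amylase, these relative differences ran from -0.98 to 1.41. Of the 35 genes, 6 were lower and 14 higher without overlap. No share over all genes was formed for this relative measure, so the count is only a description.

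**Figure D3:**
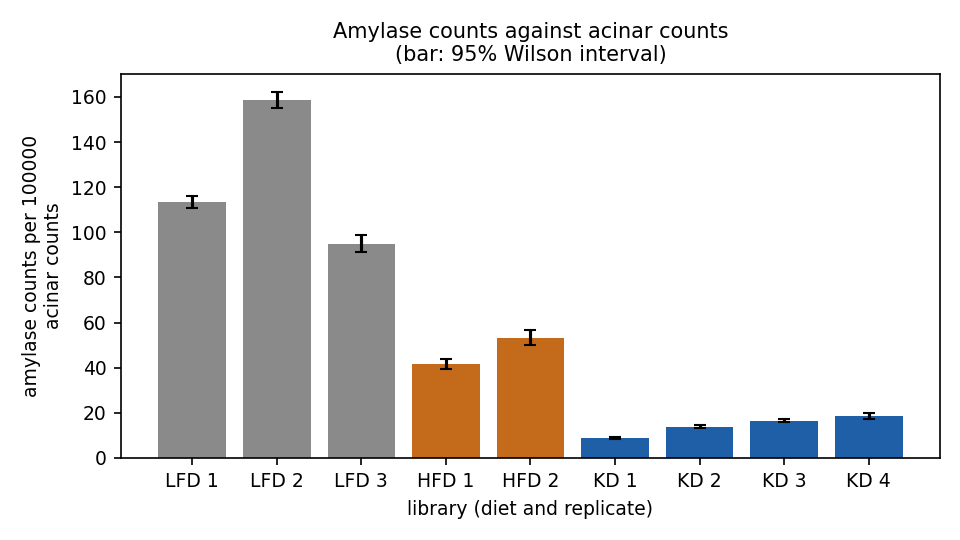
Summed counts of 7 amylase genes per 100000 counts of the acinar and amylase genes together (vertical axis) in each of the 9 libraries, with 95% Wilson intervals that cover counting error only. The KD bars, from 8.94 to 18.6, lie below both HFD bars, at 41.6 and 53.2, and those below all LFD bars, from 94.9 to 159.

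Genes of ER protein folding and degradation were higher on KD in most cases. Of 33 tested members, 24 were higher and 9 lower, with a median of 0.33. The libraries did not overlap for 18, all higher, against 15.7% of all genes, and 9 passed higher and 0 lower without KD replicate 4. The list medians relative to the HFD mean were 0.39, 0.27, 0.33 and 0.41 in KD replicates 1 to 4, so that KD replicate 4, with 20.9% acinar counts, had the highest. The list median was 0.25 with the acinar covariate, and 0.12 with the covariate and without KD replicate 4. Single members were less even over the KD libraries than the list median. Log2 fold changes of the members ran from -0.46 to 2.01, and those of the degradation genes Derl1 and Derl2 were 0.12 and -0.16.

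Sel1l, the adaptor of the ER ubiquitin ligase complex, was at 406 and 296 CPM on HFD and 2036, 1066, 2015 and 541 CPM on KD, a log2 fold change of 2.01 ± 0.55 (SE). Syvn1, the ligase itself, was at 49.7 and 63.5 CPM on HFD and 174, 92.8, 160.0 and 89.7 CPM on KD. Edem1, which picks misfolded glycoproteins for disposal, was at 244 and 166 CPM on HFD and 1053, 553, 852 and 269 CPM on KD. All 3 had every KD library above both HFD libraries, with replicates 1 and 3 highest. Herpud1, an ER membrane scaffold, Derl3, a channel component, and Os9, a lectin of the same pathway, differed by 1.28, 1.92 and 0.95. With the acinar covariate, Sel1l, Edem1 and Derl3 were at 0.21, 0.03 and 0.18, and Os9 at 0.45. P4hb, a protein disulfide isomerase, differed by 0.91 ± 0.28 (SE) and Xbp1, the transcription factor of the unfolded protein response, by 0.90 ± 0.30 (SE).

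Hspa5, the main ER chaperone BiP, was at 907 and 975 CPM on HFD and 1137, 1045, 1245 and 1260.4 CPM on KD. KD was higher without overlap, by a log2 fold change of 0.32 ± 0.23 (SE). Hsp90b1, the ER form of HSP90, was at 1070.3 and 853 CPM on HFD and 593, 699, 780.0 and 1029.8 CPM on KD and overlapped (log2 fold change -0.31, SE 0.24), and so did Calr, calreticulin (log2 fold change 0.14, SE 0.22). Syvn1, Edem1, Herpud1, Derl3, Hspa5, Hsp90b1, Calr, Xbp1, Derl1 and Derl2 were chosen after their values were seen.

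Promoters of these genes were read for the ER stress response element, the site of ATF6 and XBP1. The windows held 250 bases before to 50 after a start, from RefSeq on GRCm38.p6, and were matched by current symbol for 28 of the 33 genes. The element was searched as CCAAT, any 9 bases and CCACG, on both strands. It was found in 37 of 27025 genes with a promoter (0.137%) and in 10 of the 28. The 10 had a median log2 fold change of 0.23, from -0.31 to 1.92, and the 18 without it 0.41, from -0.46 to 2.01. Below are 2 genes with small differences, Hspa5 and Calr, and 2 with large ones, Syvn1 and Derl3, all of which hold it. Capitals mark the element, or its reverse complement, in the strand of the gene.
Hspa5 chr2:34771980-34772088 (+): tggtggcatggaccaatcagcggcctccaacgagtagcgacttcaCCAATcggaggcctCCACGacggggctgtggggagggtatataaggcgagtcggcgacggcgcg
Calr chr8:84847030-84847138 (-): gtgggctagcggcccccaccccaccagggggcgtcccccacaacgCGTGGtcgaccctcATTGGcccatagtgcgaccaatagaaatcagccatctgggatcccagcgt
Syvn1 chr19:6046487-6046575 (+): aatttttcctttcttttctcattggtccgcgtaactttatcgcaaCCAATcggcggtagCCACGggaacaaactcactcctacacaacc
Derl3 chr10:75893197-75893305 (+): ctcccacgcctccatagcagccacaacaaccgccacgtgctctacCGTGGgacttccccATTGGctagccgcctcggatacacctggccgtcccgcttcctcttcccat
The match is a description of letters and shows no binding. Genes with the same element lay near both ends of the list.

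The integrated stress response list, which holds targets of ATF4, had 21 of 26 members higher and a median of 0.51. Without KD replicate 4, 10 passed higher and 1 lower, against 6.39% and 3.45% of all genes. KD replicate 4 had a list median of 0.14 and the other KD libraries 0.42 to 0.88, and with the acinar covariate the list median was -0.17. Nupr1, a stress-induced chromatin protein, was at 122 and 55.5 CPM on HFD and 394, 225, 404 and 103 CPM on KD. Asns, asparagine synthetase, was at 134 and 119 CPM on HFD and 335, 188, 289 and 125 CPM on KD. KD replicate 4 lay within the HFD range for both. Slc7a11, the cystine transporter, was at 8.15 and 3.39 CPM on HFD and 28.7, 17.2, 31.3 and 9.45 CPM on KD and did not overlap, and its partner chain Slc3a2 differed by 0.83 ± 0.21 (SE). Atf3, a stress-induced transcription factor, went the other way, at 21.5 and 22 CPM on HFD and 13.2, 10.5, 6.86 and 11.4 CPM on KD. Its 4 KD libraries were below both HFD libraries, with a log2 fold change of -1.04 ± 0.23 (SE).

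The C/EBP-ATF response element that ATF4 binds, searched as TGATGCAA on both strands, was in 1.03% of all genes' promoter windows and in 6 of 23 genes of the list with a window. Their median log2 fold change was 0.24, from -1.04 to 1.90, against 0.43 for the 17 without it. The windows of Atf3, lower on KD, and of Nupr1 and Slc7a11, higher on KD, are shown because they hold the same 8 letters with opposite differences, with capitals for the element or its reverse complement.
Atf3 chr1:191183391-191183488 (-): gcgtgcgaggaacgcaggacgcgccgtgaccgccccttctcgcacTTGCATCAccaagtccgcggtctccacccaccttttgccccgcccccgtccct
Nupr1 chr7:126625528-126625625 (-): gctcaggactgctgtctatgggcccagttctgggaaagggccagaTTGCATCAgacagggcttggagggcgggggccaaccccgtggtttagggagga
Slc7a11 chr3:50443627-50443724 (-): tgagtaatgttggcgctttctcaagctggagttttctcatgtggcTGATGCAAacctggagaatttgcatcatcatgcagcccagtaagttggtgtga
The Slc7a11 window also holds a reverse copy, left in lower case. Slc7a11 was chosen after its values were seen.

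The list of transport from the ER to the Golgi had nearly the same median in each of the KD libraries. Of 48 genes, 40 were higher on KD and 8 lower, with a median of 0.29. The libraries did not overlap for 25 higher and 1 lower, against 15.7% and 18.2% of all genes. List medians were 0.35, 0.27, 0.30 and 0.35 in KD replicates 1 to 4, the median with the acinar covariate was 0.29, and without KD replicate 4 as well it was 0.11. Tmed10, a p24 cargo receptor, was at 146 and 141 CPM on HFD and 213, 198, 215 and 209 CPM on KD. Arfgap3, which acts on the COPI coat, was at 81.2 and 89.8 CPM on HFD and 157, 132, 158 and 121 CPM on KD. Neither overlapped, with log2 fold changes of 0.54 ± 0.13 (SE) and 0.73 ± 0.18 (SE). There, 7 members passed higher and 1 lower once KD replicate 4 was left out, against 6.39% and 3.45% of all genes.

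The translocon and N-glycosylation list had 20 of 30 higher and a median of 0.16. Without KD replicate 4, 4 passed higher and 1 lower, against 6.39% and 3.45% of all genes. Sec61a1, the pore of the translocon, was at 241 and 312 CPM on HFD and 531, 416, 519.8 and 393 CPM on KD, and Srp68, of the signal recognition particle, differed by 0.77 ± 0.20 (SE). All 75 cytosolic ribosomal protein genes were higher, with a median of 0.67. Of them, 35 did not overlap and 38 passed without KD replicate 4, against 15.7% and 6.39% of all genes. Rpl28 and Rpl36, proteins of the large subunit, differed by 1.22 ± 0.29 (SE) and 0.77 ± 0.18 (SE), and Rpl4, of the same subunit, was at 548 and 418 CPM on HFD and 1162, 733, 933 and 566 CPM on KD. List medians in KD replicates 1 to 4 were 1.05, 0.53, 0.82 and 0.21, and with the acinar covariate the median was -0.08, so the ribosomal list ordered the libraries as the acinar list did, unlike the transport list. Ribosomal genes have many near-identical pseudogenes, which could split their reads.

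**Figure D4:**
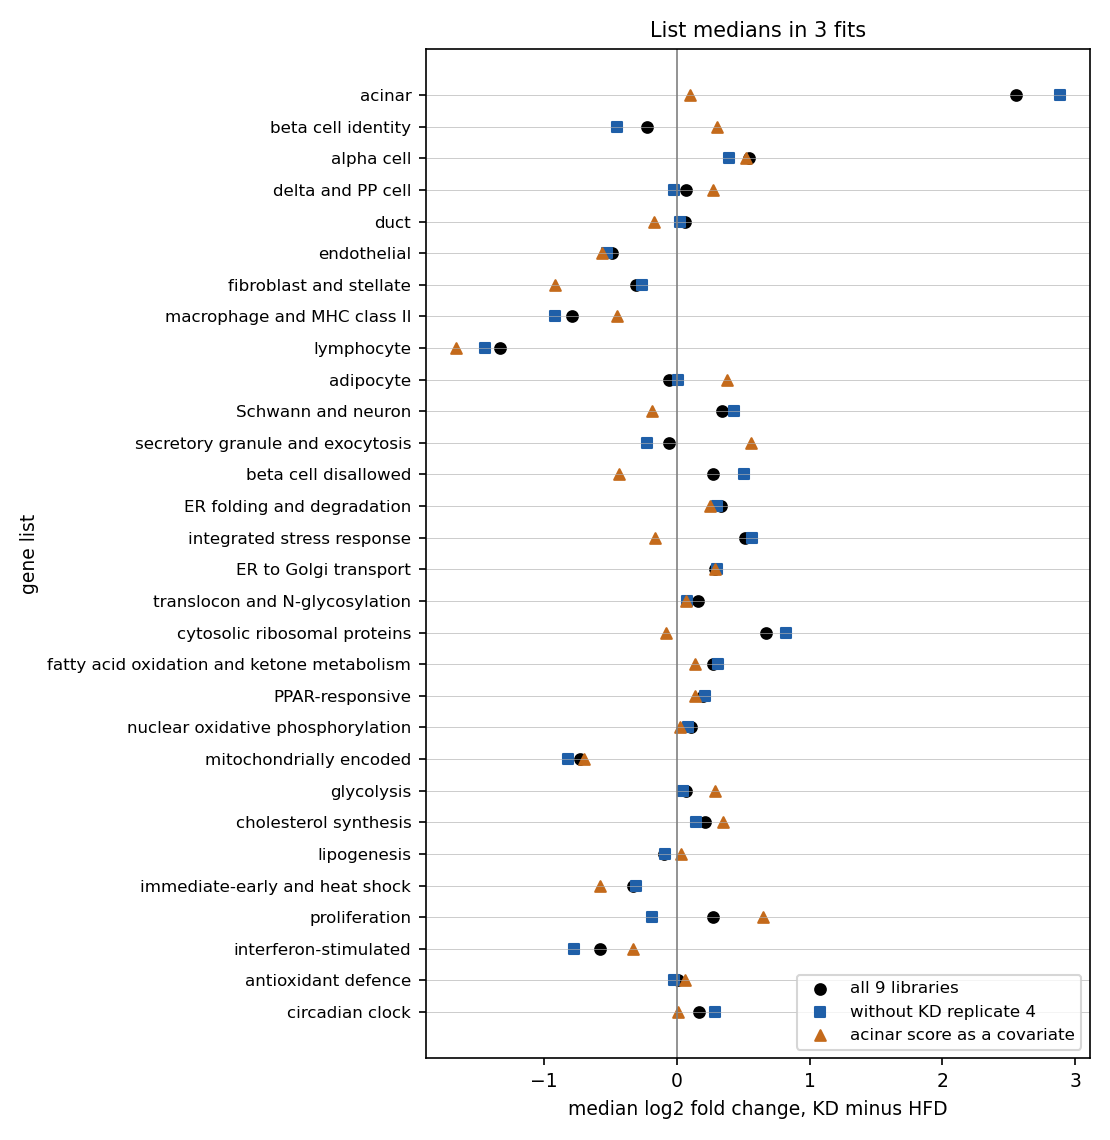
Median log2 fold change, KD minus HFD (horizontal axis), of each gene list (rows) in 3 fits: all 9 libraries (circles), without KD replicate 4 (squares) and with the acinar score as a covariate (triangles). The ER to Golgi list stays at 0.29 to 0.30 in these fits, and the ribosomal list goes from 0.67 to -0.08 with the covariate. The acinar list is near 0 with the covariate by construction, since the covariate is its own mean.

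Beta cell identity genes were lower on KD for 20 of 26 members, with a median of -0.22, which became 0.30 with the acinar covariate. The libraries did not overlap for 4 (15.4%), all lower, against 18.2% of all genes lower without overlap. Without KD replicate 4, 7 passed lower and 0 higher, against 3.45% and 6.39% of all genes. Ins1 was at 20156 and 19645 CPM on HFD and 8865, 17586, 12255 and 32019 CPM on KD. Ins2 was at 66138 and 43896 CPM on HFD and 17778, 34203, 27709 and 63380.1 CPM on KD. Both overlapped, since KD replicate 4 was above both HFD libraries for Ins1 and between them for Ins2, with log2 fold changes of -0.17 ± 0.55 (SE) and -0.62 ± 0.61 (SE). Slc30a8, the zinc transporter of the insulin granule, was at 881 and 718 CPM on HFD and 255, 417, 355 and 535 CPM on KD, lower in all 4 KD libraries (log2 fold change -1.03, SE 0.31). Rfx6, a transcription factor of endocrine cells, was at 178 and 123 CPM on HFD and 45.8, 69.8, 69.5 and 101 CPM on KD, again without overlap (log2 fold change -1.08, SE 0.32). Iapp, which encodes amylin and was chosen after its values were seen, differed by -1.08 ± 0.48 (SE).

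Other islet hormones did not separate the diets. Gcg, glucagon, was at 8417 and 5371 CPM on HFD and 7468, 10341, 7114 and 15789.6 CPM on KD. Sst, somatostatin, was at 841 and 612 CPM on HFD and 672, 679, 593 and 1100.2 CPM on KD. Ppy, pancreatic polypeptide, was at 649 and 1455 CPM on HFD and 1386, 931, 1954 and 631 CPM on KD. KD replicate 4 was the highest library for Gcg and Sst and the lowest for Ppy. The alpha cell list had 9 of 14 higher and 5 lower, with a median of 0.54, and 0.52 with the acinar covariate. Its libraries did not overlap for 7 higher and 2 lower, against 15.7% and 18.2% of all genes. Without KD replicate 4, 2 members passed higher and 2 lower, against 6.39% and 3.45% of all genes. Irx1, an alpha cell transcription factor, differed by 1.11 ± 0.33 (SE) and Sstr2, a somatostatin receptor, by 1.40 ± 0.41 (SE). The delta and PP cell list had 6 of 11 higher and a median of 0.07.

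Granule and exocytosis genes had 13 higher and 15 lower of 28 and a median of -0.06. Without KD replicate 4, 5 passed lower and 0 higher, against 3.45% and 6.39% of all genes. Chga, chromogranin A, was at 3065 and 4218 CPM on HFD and 3079, 4954, 3789 and 7015 CPM on KD. Scg2, secretogranin II, was at 5877 and 4135 CPM on HFD and 1394, 2709, 2203 and 5658 CPM on KD. For both the diets overlapped, and KD replicate 4 was the highest KD library. Genes that beta cells normally keep off had 12 of 18 higher and a median of 0.28, and Hk2, the high-affinity hexokinase, was at 3.85 and 1.68 CPM on HFD and 27.3, 11.3, 27.3 and 6.54 CPM on KD. Hk2 did not overlap, yet its log2 fold change of 2.71 ± 0.75 (SE) was 0.55 with the acinar covariate. The duct list had 9 of 16 higher and 7 lower, with a median of 0.06, and -0.17 with the acinar covariate. Its libraries did not overlap for 3 higher and 1 lower, against 15.7% and 18.2% of all genes. Muc1, a surface mucin, was at 26.4 and 12.3 CPM on HFD and 162, 78.4, 159 and 32.5 CPM on KD. For Muc1 the KD libraries stood in the order of their acinar shares, and the part of acinar RNA in this was not tested.

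Markers of immune cells were lower on KD. All 21 genes of the macrophage and MHC class II list had a log2 fold change below 0, with a median of -0.79, and 13 did not overlap, against 18.2% of all genes lower without overlap. The summed level of the list was 372 to 501 CPM on HFD and 167 to 317 CPM on KD, and all 21 were detected in every library. H2-Aa, an MHC class II chain, was at 70.0 and 68.7 CPM on HFD and 26.1, 37.5, 24 and 44.5 CPM on KD. Lyz2, lysozyme of myeloid cells, was at 24.2 and 30.7 CPM on HFD and 11, 10.2, 5.25 and 9.41 CPM on KD. Both lay lower in all 4 KD libraries. Adgre1, the macrophage marker F4/80, differed by -1.08 ± 0.26 (SE) and Cd74, the class II chaperone, by -0.67 ± 0.41 (SE) with overlap. Of the list, 5 passed lower without KD replicate 4, and with the acinar covariate the list median was -0.45.

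Lymphocyte genes were few in counts. The summed level of the 17 tested genes was 76.7 to 88.2 CPM on HFD and 9.44 to 33.1 CPM on KD, and 12 of the 17 had 0 counts in at least 1 of the 6 libraries. Cd8a had 0 counts in both HFD libraries. Ighm, the heavy chain of IgM, was at 53 and 69.6 CPM on HFD and 23.7, 8.69, 5.25 and 10.4 CPM on KD. Ptprc, CD45 of all white cells, was at 18.5 and 12.7 CPM on HFD and 5.84, 5.97, 2.76 and 6.50 CPM on KD. KD lay lower without overlap in both, and neither passed without KD replicate 4 (edgeR adjusted p = 0.304 and 0.0859). Their LFD means were 541 and 50.6 CPM. Of the 17 genes, 13 were lower and the median was -1.33, and -1.33 too with the 5 genes of 3 or fewer counts in a group set at a floor of 3 counts.

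Endothelial genes had 16 of 17 lower and a median of -0.49, and -0.57 with the acinar covariate. Of them, 11 were lower without overlap, against 18.2% of all genes. Tek, the angiopoietin receptor, was at 33.7 and 29.3 CPM on HFD and 21.3, 17.9, 12.5 and 17 CPM on KD, and Flt1, a VEGF receptor, differed by -0.54 ± 0.15 (SE). KD replicate 3 had the lowest list median, -1.05, and the other KD libraries -0.36 to -0.50. The fibroblast and stellate list had 18 of 21 lower, a median of -0.31, and medians by library from -1.17 to 0.10. Rgs5, a pericyte gene, was at 305 and 189 CPM on HFD and 114, 134, 82.6 and 162 CPM on KD and did not overlap. Adipocyte genes, 6 of 13 tested, had a median of -0.06, and Lpl, lipoprotein lipase, differed by 0.40 ± 0.15 (SE), while the 10 Schwann and neuron genes had a median of 0.34.

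Interferon-stimulated genes were lower for 26 of 29, with a median of -0.58. Without overlap, 14 were lower and 0 higher, against 18.2% and 15.7% of all genes. Ddx58, the RNA sensor RIG-I, was at 25.1 and 25.3 CPM on HFD and 13.4, 15.1, 16 and 17.6 CPM on KD. The KD libraries formed a narrow band below both HFD libraries, and the log2 fold change was -0.70 ± 0.15 (SE). List medians were -0.65, -0.51, -0.96 and -0.25 in KD replicates 1 to 4, and -0.33 with the acinar covariate. Of these genes, 4 passed lower without KD replicate 4, against 3.45% of all genes.

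Immediate-early and heat shock genes had 25 of 33 lower and 8 higher, with a median of -0.33. Without overlap, 12 were lower and 1 higher, against 18.2% and 15.7% of all genes. Hspa1a and Hspa1b are near-identical inducible HSP70 genes whose reads may be split between them. Hspa1a was at 63 and 88.1 CPM on HFD and 34.9, 33.3, 22.4 and 22.7 CPM on KD. Hspa1b was at 87.4 and 131 CPM on HFD and 51.4, 50.5, 42 and 36.4 CPM on KD. All KD libraries were below both HFD libraries, and KD replicates 3 and 4 were lowest, with log2 fold changes of -1.41 ± 0.25 (SE) and -1.28 ± 0.25 (SE). With the acinar covariate the list median was -0.58.

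The list medians of mitochondrially encoded and nuclear genes had opposite signs with all libraries, but not without HFD replicate 1. All 13 mitochondrially encoded genes were lower on KD, with a median of -0.73, but none was without overlap. The cytochrome oxidase subunit mt-Co1 was at 9642 and 5579 CPM on HFD and 3648, 4900.0, 6012 and 5859 CPM on KD. Cytochrome b, mt-Cytb, was at 2552 and 1065 CPM on HFD and 785, 1083, 1383 and 1421 CPM on KD. HFD replicate 1 was far above HFD replicate 2 in both, and without HFD replicate 1 the list median was 0.14. The 64 nuclear genes of oxidative phosphorylation had 38 higher and 26 lower and a median of 0.11, and 0.20 without HFD replicate 1. Without overlap, 22 were higher and 6 lower, against 15.7% and 18.2% of all genes. Uqcrc1, a core subunit of complex III, was at 40.1 and 44.5 CPM on HFD and 83.4, 61.5, 71.3 and 56.3 CPM on KD, without overlap (log2 fold change 0.69, SE 0.19).

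Lipid synthesis genes differed little as lists. Cholesterol synthesis had 16 of 24 higher and a median of 0.21, with Lss, lanosterol synthase, at a log2 fold change of 0.52 ± 0.14 (SE). Lipogenesis had 7 of 18 higher and a median of -0.10, and Fasn, fatty acid synthase, was at 91.4 and 115 CPM on HFD and 155, 150.1, 151 and 145 CPM on KD. Its KD libraries were nearly equal and above both HFD libraries. Glycolysis had 13 of 20 higher and a median of 0.07, and no member passed without KD replicate 4.

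The antioxidant list had a median of 0.01, with 13 of 25 higher. Nqo1, a quinone reductase of the NRF2 response, was lower, at 3.10 and 4.73 CPM on HFD and 1.17, 1.74, 0.802 and 1.48 CPM on KD, without overlap. The clock list had 13 of 19 higher and a median of 0.17, and Cry1, a repressor of the clock, was at 15.4 and 20.2 CPM on HFD and 31.5, 26, 31.7 and 24.5 CPM on KD. Proliferation genes had 15 of 25 higher and a median of 0.27, which rested on KD replicate 4: its list median was 1.01, those of the other KD libraries -0.18 to -0.01, and the list median without it was -0.19.

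**Figure D5:**
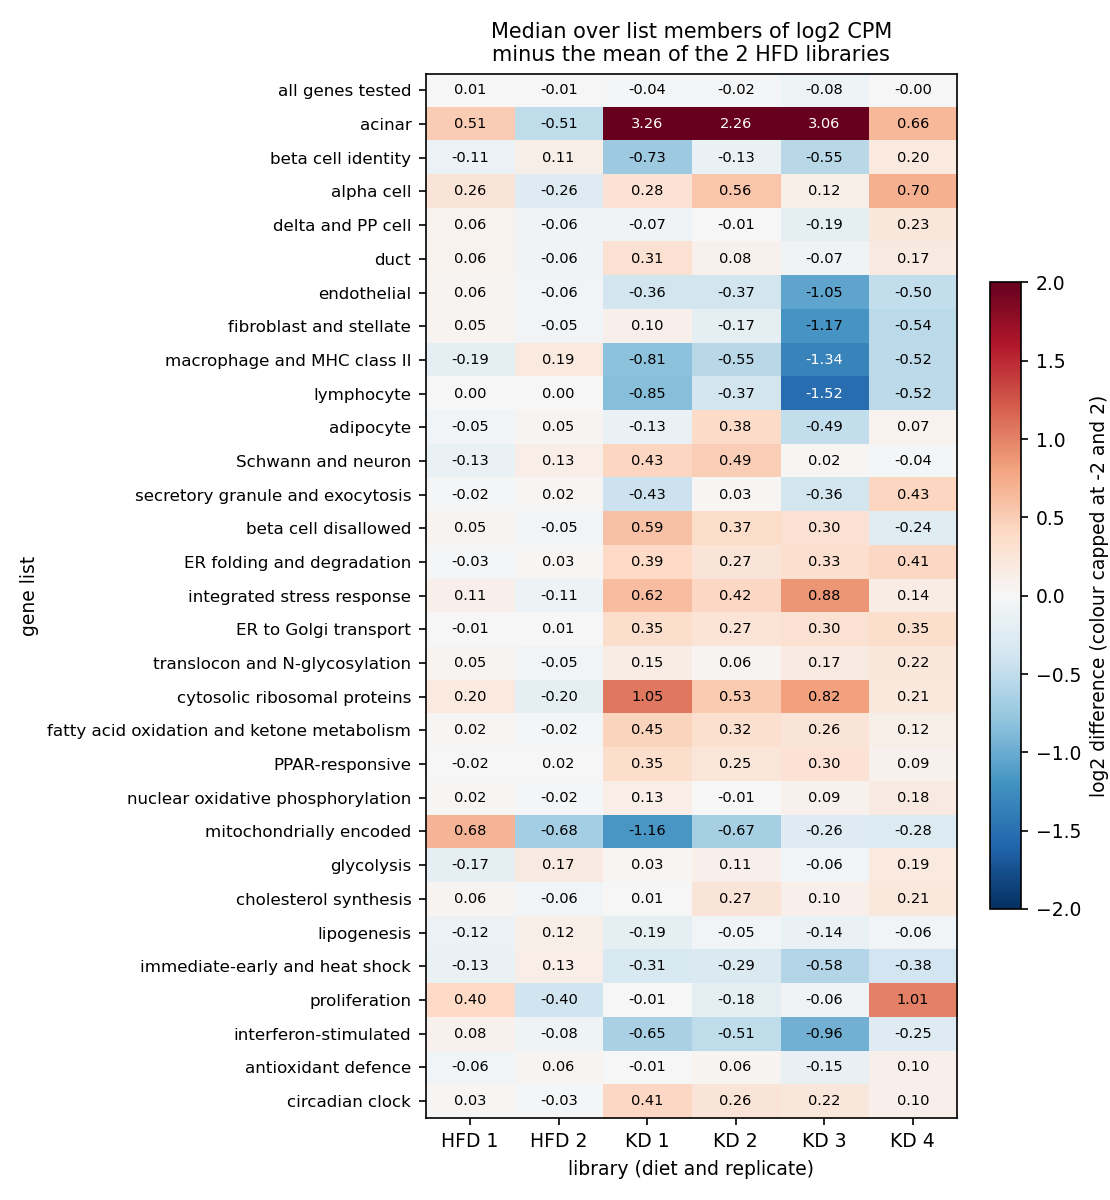
Median over each list (rows) of log2 CPM minus the mean of the HFD libraries, in the 2 HFD and 4 KD libraries (columns); colour and printed value give the log2 difference. ER folding and ER to Golgi transport lie between 0.27 and 0.41 in all KD libraries, whereas the acinar list falls from 3.26 in KD replicate 1 to 0.66 in KD replicate 4.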

How the data were processed

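Poly(A) RNA of islets was sequenced from strand-specific libraries, per the labels' protocols. The authors deposited raw counts for 56941 Ensembl identifiers, 1 column per library. The submitters' processing notes name cutadapt 1.16, STAR 2.7.9a, featureCounts 1.6.3, DESeq2 1.40.2 and the build GRCm39 (mm39), with no role or order, and the strand setting of the counting was not given in the sources used here. Symbols came from the supplied annotations and matched 51948 identifiers.

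Counts were fitted in edgeR 4.0.16 (R 4.3.3): filterByExpr by diet, which left 18548 genes, TMM scaling, a robust quasi-likelihood fit of a mean per diet over all 9 libraries, the two-sided contrast of KD minus HFD and Benjamini-Hochberg adjustment at 0.05. Standard errors were the fold change over the square root of F. Counting error is small at these depths: the 95% Wilson interval of an acinar share of the 6 libraries was within 0.0227 percentage points of it, for counting error only. Alternatives were DESeq2 1.42.0, limma-voom (limma 3.58.1), other scalings and filters, an acinar covariate, a replicate block and the omission of each library. Fits that combine the omission of KD replicate 4 with the covariate, DESeq2 or another scaling were chosen after seeing the data. On simulated counts for this comparison (17982 genes, 200 changed), edgeR recovered 84% of 4-fold and 37% of 2-fold changes, with 9 false calls. The simulation drew genes independently around a shared mean profile. It had no difference in acinar share and no library like KD replicate 4, so these rates do not give the sensitivity in the real libraries.

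The libraries compared and the 30 gene lists were chosen with earlier results of these data known. The rule for named genes took a panel of 12 genes, the 10 largest differences in each direction with an unadjusted p below 0.01, a higher mean of 5 CPM or more and no overlap of libraries, the 5 lowest p in each direction without KD replicate 4, and from each list the 2 highest in level and the 2 lowest in p, leaving out unnamed models, pseudogenes and receptor segments. Of 140 such genes, 85 are described, and the values of the others are not reported here.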

Additional observations from a re-analysis of the deposited data

Results flagged for a closer look

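Among the KD libraries, 136 sets of values (genes and list means, 4 libraries each) were searched for an outlying library. Its gap to its nearest neighbour had to be past Dixon's 95% critical value. Chance gives such a gap in about 1 of 20 sets, and 3 were found, fewer than that rate would give. Pdyn stood at 139 CPM in KD replicate 4 against 20.8 CPM in the next library (gap 0.913 of the range). Sst stood at 1100.2 CPM in KD replicate 4 against 679.0 CPM (0.830). The mean log2 CPM of the lymphocyte list was -2.26 in KD replicate 3 against -1.54 in the next lowest (0.870). Pdyn and Sst were thus highest in the KD library with the lowest acinar share and the highest insulin share.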

How the results depend on the processing

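The count of genes called depended on the setting. It was 0 in edgeR with other size factors, TMM without acinar and hormone genes, a filter of 5 CPM, only the 6 libraries, the acinar covariate or a test against 1.5-fold, and in limma-voom. It was 1518 in DESeq2 and 316 without a low-count filter. Leaving out 1 library gave from 0 to 1793 calls, the latter only without KD replicate 4, and that omission gave 2935 in DESeq2, 1842 with TMM without acinar and hormone genes and 0 with the acinar covariate. The cause was not tested. With the replicate number as a block there were 2320 calls, and 6 with the block and the acinar score. Only KD replicate 4 carried its number, so the block fits it exactly and takes it out of the contrast. With the score as well, few degrees of freedom remained, so sign changes in that fit are uncertain. Correlations of same-numbered HFD and KD libraries, as deviations from their group means, were 0.038 and 0.081. The 2 HFD libraries deviate as mirror images of each other, so these values cannot show whether same-numbered samples were paired. The differences in acinar share (26.2 to 40.0 points) and insulin share (-7.29 to -4.06 points) kept their sign under the omission of each library, and were 58.5 and -2.15 points per TMM-scaled library size. List medians kept their sign in all 23 alternatives for 11 of 30 lists. With the replicate block and the acinar score they turned for beta cell identity (0.30), endothelial (0.14), adipocyte (0.24), secretory granule and exocytosis (0.57), beta cell disallowed (-0.042), ER folding and degradation (-0.43), integrated stress response (-0.39), ER to Golgi transport (-0.12), translocon and N-glycosylation (-0.30), cytosolic ribosomal proteins (-0.063), nuclear oxidative phosphorylation (-0.24), lipogenesis (0.13), proliferation (-1.94). With the acinar score alone they turned for beta cell identity (0.30), duct (-0.17), adipocyte (0.38), Schwann and neuron (-0.18), secretory granule and exocytosis (0.56), beta cell disallowed (-0.43), integrated stress response (-0.17), cytosolic ribosomal proteins (-0.083), lipogenesis (0.035). In both fits acinar genes are part of the score. For the 102 named genes, 1861 of 2344 alternative values had the same sign and no call, 400 the same sign with a call and 83 the other sign. The sign changed with the acinar score as a covariate for Ins1 (0.84), Ins2 (0.15), Ppy (-0.057), Pdyn (0.44), Amy1 (-1.15), Amy2a5 (-1.92), Scg2 (0.16), Asns (-0.27), Nupr1 (-0.20), Rpl4 (-0.0071), Hadh (0.46), Xbp1 (-0.029), Plin2 (0.028), Derl2 (0.12), and in limma-voom for Sst (-0.072), and with the replicate block for Sst (-0.16), Txnip (0.030). Next, the sign changed with the replicate block and the acinar score for Ins1 (0.0016), Txnip (0.65), Mt2 (0.19), Cysltr1 (1.18), Me3 (0.17), Reg3d (-0.78), Reg1 (-1.62), Reg3g (-3.50), Lcat (-0.57), Amy1 (-0.99), Amy2a5 (-3.85), Syvn1 (-1.04), Derl3 (-1.07), Calr (-0.43), Slc7a11 (-0.73), Hspa5 (-0.83), Os9 (-0.17), Sel1l (-0.51), Slc3a2 (-0.31), Nupr1 (-0.52), Arfgap3 (-0.19), Sec61a1 (-0.20), Hadh (0.82), Ucp2 (-0.12), Flt1 (0.042), Tek (0.14), Muc1 (-0.12), Hspa1a (0.83), Hspa1b (0.50), Nqo1 (0.40), Hk2 (-0.61), Slc16a6 (-2.10), Plin2 (1.13). Next, the sign changed without KD replicate 4 in DESeq2 for Sst (-0.14), and without KD replicate 4 and with TMM without acinar and hormone genes for Sst (-0.14), and without KD replicate 4 and with the acinar score for Ins1 (0.46), Sst (-0.094), Mt2 (0.27), Reg1 (-0.46), Reg3g (-0.39), Amy1 (-0.96), Amy2a5 (-2.17), Derl3 (-0.17), Slc7a11 (-0.54), P4hb (-0.012), Hspa5 (-0.040), Asns (-0.16), Nupr1 (-0.29), Rpl4 (-0.10), Hadh (0.68), Hspa1b (0.086), Hk2 (-0.21), Slc16a6 (-0.20), Plin2 (0.61), Derl2 (0.10). Over the omission of each library, genes with a change of sign ran as follows: Ins1 from -0.62 to 0.051, Sst from -0.16 to 0.32, Ppy from -0.24 to 0.92, Txnip from -0.33 to 0.11, Amy2a5 from -0.32 to 0.82, Calr from -0.0075 to 0.33, Ucp2 from -0.016 to 0.21, mt-Cytb from -1.12 to 0.14. Depth limited the lymphocyte genes, 12 of 17 of which had 0 counts in a library.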
